A study of Mus musculus with 12 samples.

Results

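The aminoacyl-tRNA synthetases are the enzymes that join each amino acid to its transfer RNA. Their genes were taken from the count table by name: a letter followed by ars, with or without a final 2, plus Eprs, Farsa and Farsb. That gave 37 of the 38924 genes in the table. Of these, 18 encode cytosolic enzymes, 2 (Gars and Kars) encode enzymes shared by cytosol and mitochondria, and 17, whose symbols end in 2, encode mitochondrial enzymes. All 37 passed the filter on low counts, as did 14870 genes in total.

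Transcripts were measured by RNA sequencing of interscapular brown fat, the heat-producing depot between the shoulder blades. The mice were wild type, of the strain C57BL/6J, and lived from 10 to 14 weeks of age at 30 °C (thermoneutral for a mouse), 22 °C (mild cold) or 6 °C (severe cold), with 4 mice at each temperature. Nothing else differed between the groups per the labels, and no group carried a transgene or a drug. Library totals were 18290162 to 32513051 counts, apart from 86438386 in 22 °C mouse 3, whose library code, 8846, also lies apart from the 7509 to 7520 of the others. At 30 °C, 2 libraries called mice A and B are tied to that temperature but to no numbered mouse.

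Charged transfer RNAs feed 2 separate translation systems. The cytosolic enzymes supply the ribosomes that read nuclear messages, and several of them sit in a large multi-synthetase complex. The mitochondrial enzymes are also encoded in the nucleus, are imported, and supply the ribosomes that make the few respiratory chain subunits encoded by mitochondrial DNA. Brown adipocytes are packed with mitochondria, whose respiration drives heat production through the uncoupling protein Ucp1.

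Brown adipocyte markers were present in every library. Summed over 12 markers they reached 11416 to 13411 CPM at 30 °C, 17666 to 20797 at 22 °C and 24690 to 26993 at 6 °C. CPM is the read count of a gene relative to its library's size, here scaled with edgeR's trimmed mean of M-values (TMM), a scaling that sets the bulk of genes level between libraries. Of the 12, 8 were higher and 1 lower at 6 °C against 30 °C, while at 6 °C against 22 °C 3 were higher and 3 lower (median log2 fold change -0.05), so the larger sum at 6 °C does not hold for the list as a whole. Ucp1, which carries much of that sum, stood at 1469 ± 569 CPM (SD, n = 4) at 30 °C, 3373 ± 1053 at 22 °C and 10439 ± 1044 at 6 °C. The shares over all tested genes to read these marker counts against were 25.3% higher and 31.5% lower at 6 °C against 30 °C. At 6 °C against 22 °C they were 16.9% and 17.4%. Markers of other cells moved with temperature too. The 12 macrophage markers summed to 583 to 1981 CPM at 30 °C, 155 to 219 at 22 °C and 273 to 567 at 6 °C, and 9 of the 12 were lower at 6 °C than at 30 °C. The high sums at 30 °C were those of mice A and B (1624 and 1981 CPM), with mice 1 and 2 at 583 and 614. The 8 fibroblast markers summed to 2728 to 5213, 1060 to 1584 and 879 to 1097 CPM, and all 8 were lower at 6 °C. The 8 T and natural killer cell markers, of which 7 were tested and all 7 were lower at 6 °C, summed to 9.57 to 17.4, 2.56 to 4.00 and 1.42 to 3.44 CPM. The 8 endothelial markers summed to 1242 to 1458, 817 to 956 and 890 to 982 CPM, and 5 were lower at 6 °C. Skeletal muscle markers varied within every group, from 918 to 4922 CPM at 30 °C, 912 to 3566 at 22 °C and 9.94 to 1810 at 6 °C. None of these markers was at 0 over a whole group. The part of these cells in the synthetase values below was not tested. In bulk tissue, fewer cells of a type and less RNA per cell cannot be told apart.

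At 6 °C the synthetase messages were, on the whole, more abundant than at 30 °C, and the mitochondrial ones rose most. At an adjusted p under 0.05 (edgeR's quasi-likelihood test, two-sided, Benjamini-Hochberg over every tested gene), 15 of the 17 mitochondrial members rose and none fell, while 11 of the 20 cytosolic and shared members rose and 1 fell. Over all tested genes 25.3% rose and 31.5% fell, 56.8% in either direction. The median log2 fold change was 0.56 for mitochondrial members, 0.22 for cytosolic and shared members and -0.11 for all tested genes. With libraries scaled by their total counts alone, which shifted the median of all genes by -0.32, 9 mitochondrial members rose and none fell, while 4 cytosolic and shared members rose and 7 fell. Directions that differ between these scalings, among them those of Rars, Tars, Hars2, Rars2 and Vars2, hold relative to the bulk of genes and not to the total. The 4 mice at 6 °C all lay above the 4 at 30 °C for 15 mitochondrial and 12 cytosolic and shared members, and all below for 1 (Qars), against 24.1% and 27.4% of tested genes.

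The step from 30 °C to 22 °C was mostly mitochondrial. Here 14 of 17 mitochondrial members rose (median 0.42) and 3 of 20 cytosolic and shared members rose (median 0.07), with none lower in either set. The background was 21.8% of genes higher and 22.8% lower, 44.6% in all. Scaled by total counts, where the median of all genes shifted by -0.26, the mitochondrial counts were 7 higher and 1 lower and the cytosolic and shared counts 2 higher and 11 lower. From 22 °C to 6 °C, 8 mitochondrial members rose and none fell (median 0.22), and 7 cytosolic and shared members rose and 1 fell (median 0.12), against 16.9% of all genes higher, 17.4% lower and 34.2% in either direction. By total counts, with a median shift of -0.06, 6 mitochondrial members rose and 2 fell, and 6 cytosolic and shared members rose and 4 fell. Whether the mitochondrial and the cytosolic members differed from each other was not tested as sets. The 22 °C mice all lay above the 30 °C mice for 15 mitochondrial and 3 cytosolic and shared members, with none all below (18.9% and 20% of tested genes). The 6 °C mice all lay above the 22 °C mice for 8 and 6, and all below for 1 in each set, Rars2 and Qars (17.8% and 17.1% of tested genes). The comparisons share their samples, so their counts are not independent of each other.

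**Figure D1:**
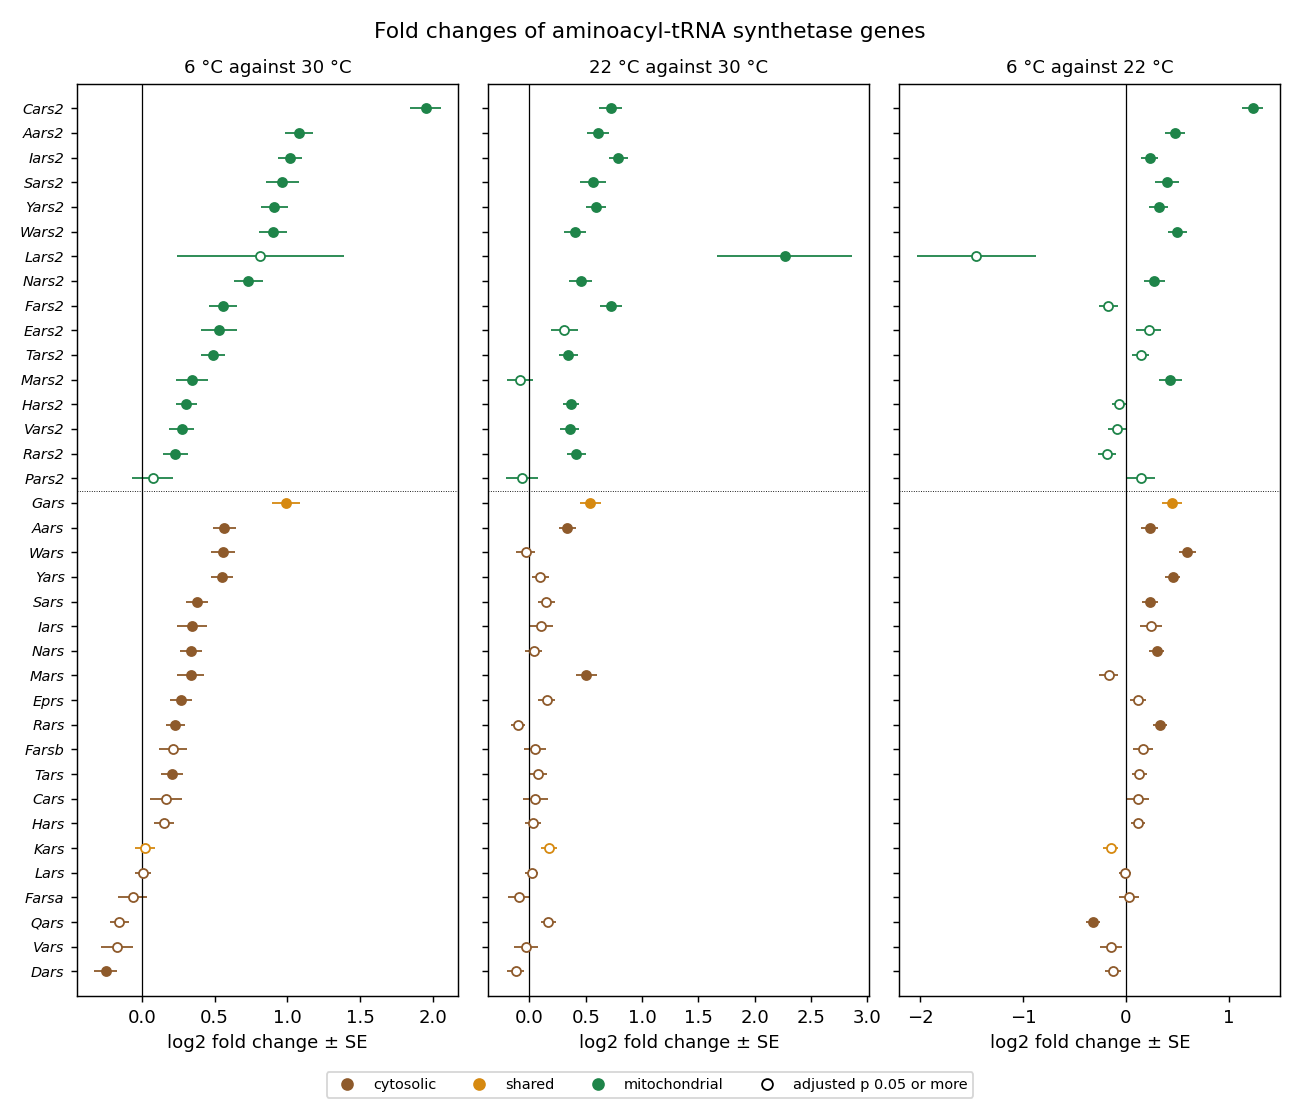
Log2 fold change with its standard error for the synthetase genes shown, in the 3 comparisons, with mitochondrial genes above the dotted line and cytosolic and shared genes under it. Filled points had an adjusted p under 0.05. The mitochondrial points lie mostly to the right of 0 at 6 °C and 22 °C against 30 °C, with Cars2 at 1.95 at 6 °C, and Lars2 has the widest error.

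Cars2, the mitochondrial cysteinyl-tRNA synthetase, changed most among members at 6 °C. Its level was 17.1, 20.1, 18.2 and 17.4 CPM in 30 °C mice 1, 2, A and B. It was 35.9, 31.9, 26.3 and 26.3 CPM in 22 °C mice 1 to 4, and 63.9, 69.4, 75.1 and 73.3 CPM in 6 °C mice 1 to 4. The 3 groups did not overlap. From 30 °C to 6 °C it rose 3.87-fold (log2 fold change 1.95, SE 0.11, adjusted p = 4.87e-08), from 30 °C to 22 °C by 0.72 (adjusted p = 0.000164) and from 22 °C to 6 °C by 1.23 (adjusted p = 7.9e-06). Cars2 lies on chromosome 8 from 11513977 to 11550783 in GRCm38, and 5.83% of its exon bases are overlapped by Naxd on the opposite strand. Cars, the cytosolic enzyme for the same amino acid, was at 20.9 ± 1.76, 21.7 ± 3.46 and 23.4 ± 1.52 CPM (SD, n = 4) at 30, 22 and 6 °C, and its groups overlapped (log2 fold change 0.17 at 6 °C against 30 °C, SE 0.11, adjusted p = 0.211).

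Aars2, the mitochondrial alanyl-tRNA synthetase, followed the same order of temperatures. It was at 29.2, 29.3, 31.0 and 24.0 CPM at 30 °C, 47.2, 47.4, 36.0 and 42.5 CPM at 22 °C, and 59.96, 59.6, 59.1 and 61.5 CPM at 6 °C. Each group lay wholly above the warmer one, and the rise from 30 °C to 6 °C was 2.12-fold (log2 fold change 1.08, SE 0.10, adjusted p = 1.77e-06). Iars2, the mitochondrial isoleucyl-tRNA synthetase, was at 149, 141, 134 and 114 CPM at 30 °C, 239, 227, 232 and 231 CPM at 22 °C, and 255, 261, 290 and 287 CPM at 6 °C. Most of its change lay between 30 °C and 22 °C (log2 fold change 0.79, SE 0.08, adjusted p = 2.47e-05, against 0.23 for 22 °C to 6 °C, adjusted p = 0.045). The smaller step lost its call in 9 of the 12 fits that left out 1 library. Exons of Iars2 are overlapped over 24.2% of their length by genes on the opposite strand, and without a record of strand in the counting, reads of Iars2 and of those genes cannot be told apart there.

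Sars2, Yars2, Wars2 and Nars2, the mitochondrial enzymes for serine, tyrosine, tryptophan and asparagine, also rose at both steps. At 6 °C against 30 °C their log2 fold changes were 0.97, 0.91, 0.90 and 0.73, with adjusted p from 4.61e-06 to 5.3e-05. Wars2 went from 9.92 ± 0.77 CPM (SD, n = 4) at 30 °C to 13.1 ± 1.47 at 22 °C and 18.5 ± 0.75 at 6 °C. The call for Nars2 between 22 °C and 6 °C (0.27, adjusted p = 0.0493) was lost in 10 of 12 fits that left out 1 library. That for Yars2 (0.32, adjusted p = 0.0176) was lost without 22 °C mouse 4, where the adjusted p was 0.0526.

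Another group of mitochondrial members rose by 22 °C and did not pass the test from there to 6 °C. Fars2, for phenylalanine, was at 43.3, 46.1, 46.9 and 39.2 CPM at 30 °C, 76.5, 80.5, 58.4 and 75.5 CPM at 22 °C, and 66.4, 60.7, 65.7 and 65.3 CPM at 6 °C. Both colder groups lay above the 30 °C group and overlapped each other. Hars2, Rars2 and Vars2, for histidine, arginine and valine, had log2 fold changes of 0.37, 0.42 and 0.36 at 22 °C and of 0.31, 0.23 and 0.27 at 6 °C, all against 30 °C. Of these, Rars2 at 6 °C lost its call in 5 of 12 fits that left out 1 library. Tars2, for threonine, was higher in both (0.35 and 0.49). Ears2, for glutamate, passed at 6 °C alone against 30 °C (0.53, adjusted p = 0.00255), and at 22 °C stood at 0.31 (adjusted p = 0.0553).

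2 mitochondrial members did not pass the test at 22 °C and had log2 fold changes there just below 0. Mars2, for methionine, was at 7.28, 8.16, 7.34 and 7.25 CPM at 30 °C, 6.93, 8.17, 7.12 and 6.11 CPM at 22 °C, and 8.44, 9.86, 9.31 and 10.5 CPM at 6 °C. The 30 °C and 22 °C groups overlapped, and the 6 °C group lay above both (log2 fold change 0.35 against 30 °C, SE 0.11, adjusted p = 0.0189, and 0.43 against 22 °C, adjusted p = 0.0112). The call against 30 °C was lost without 6 °C mouse 4 (adjusted p = 0.0585). Pars2, for proline, overlapped between all groups, at 7.29 ± 1.07, 6.97 ± 1.21 and 7.66 ± 0.66 CPM (SD, n = 4) at 30, 22 and 6 °C (-0.07 at 22 °C, adjusted p = 0.73).

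Lars2, the mitochondrial leucyl-tRNA synthetase, was the most variable member. It was at 140, 67.0, 166 and 54.0 CPM in 30 °C mice 1, 2, A and B. In 22 °C mice 1 to 4 it was at 815, 645, 186 and 412 CPM, and in 6 °C mice 1 to 4 at 369, 95.9, 121 and 165 CPM. The 22 °C group lay above the 30 °C group, and the 6 °C group overlapped both. At 22 °C against 30 °C its log2 fold change was 2.27 (SE 0.60, adjusted p = 0.0112), the largest of any member, and at 6 °C against 30 °C it was 0.82 (SE 0.58, adjusted p = 0.249).

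Several non-coding RNAs were high and low in mostly the same libraries as Lars2. Gm15564, annotated as an antisense RNA on another chromosome, was at 24.9, 7.64, 34.7 and 6.58 CPM at 30 °C, 167, 119, 28.3 and 80.4 CPM at 22 °C, and 60.9, 12.8, 18.1 and 23.2 CPM at 6 °C, in the same order of mice. Rn7sk, Rmrp and Rpph1, short RNAs of transcription control and RNA processing, summed to 2.20, 0.24, 4.02 and 0.60 CPM at 30 °C, 18.1, 20.9, 1.86 and 10.0 CPM at 22 °C, and 6.50, 0.47, 0.67 and 2.52 CPM at 6 °C. In both, 22 °C mouse 3, the deep library with a code apart, was the lowest of its group and 6 °C mouse 1 the highest of its group, as for Lars2. The longest coding Lars2 transcript shares 72 bases with Gm15564 at 98.6% identity, at positions 3278 to 3349, beyond the coding part that ends at 2905. With the level of Rn7sk, Rmrp and Rpph1 as a covariate, a fit chosen after these values were seen, Lars2 at 22 °C against 30 °C stood at 0.63 with an adjusted p of 0.0824. In that fit 8 mitochondrial members were higher at 22 °C than at 30 °C in place of 14, beside 2006 of all tested genes in place of 3248. At 6 °C against 30 °C 16 mitochondrial members were higher in place of 15. The covariate, a mean log2 CPM, was 2.39, 2.72 and 1.66 in 22 °C mice 1, 2 and 4 and -0.63 in mouse 3. At 30 °C it was -2.81 to 0.16, so the fit cannot fully tell its level apart from temperature. The part of these RNAs in the Lars2 values was otherwise not tested.

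**Figure D2:**
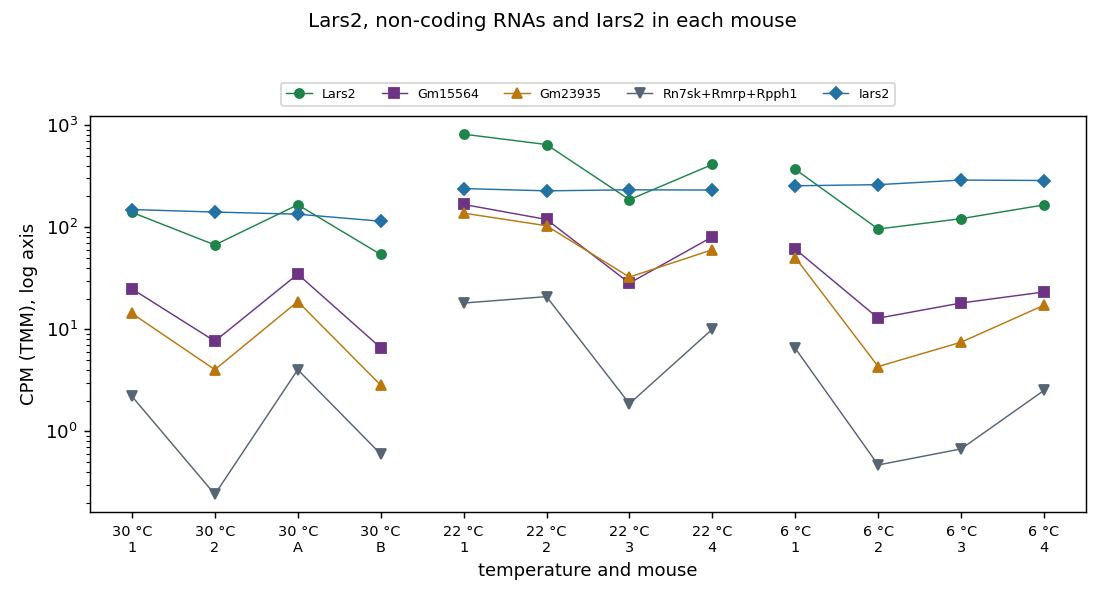
CPM on a log axis of Lars2, Gm15564, Gm23935, the sum of Rn7sk, Rmrp and Rpph1, and Iars2 in each of the 12 libraries; lines join libraries of 1 temperature and have no meaning of order. Lars2 and the 3 non-coding series are highest in mouse A at 30 °C, lowest in mouse 3 at 22 °C and highest in mouse 1 at 6 °C; Lars2 spans 54.0 to 166 CPM at 30 °C, where Iars2 lies between 114 and 149 CPM.

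The enzymes of the cytosol can be split by whether they sit in the multi-synthetase complex. At 6 °C against 30 °C, 7 of the 12 outside the complex rose and none fell (median log2 fold change 0.27), and 4 of the 8 within it rose and 1 fell (median 0.13), beside 25.3% higher and 31.5% lower over all tested genes. At 22 °C against 30 °C 2 of 12 outside and 1 of 8 within rose, with medians of 0.05 and 0.13 and 21.8% of all genes higher. At 6 °C against 22 °C 6 of 12 outside rose and, within the complex, 1 rose and 1 fell of 8, beside 16.9% higher and 17.4% lower over all genes. The difference between these groups was not tested.

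Gars, the glycyl-tRNA synthetase of both compartments, changed most of the 20. It was at 90.3, 102, 107 and 78.9 CPM at 30 °C, 144, 151, 127 and 128 CPM at 22 °C, and 186, 178, 201 and 187 CPM at 6 °C. The groups did not overlap, and the level at 6 °C was 1.99-fold that at 30 °C (log2 fold change 0.99, SE 0.10, adjusted p = 3.26e-06). Aars, for alanine, was at 73.5, 82.2, 88.1 and 70.6 CPM at 30 °C, 100, 107, 97.8 and 92.5 CPM at 22 °C, and 111, 113, 121 and 122 CPM at 6 °C. Its groups did not overlap (0.57 for 6 °C against 30 °C, SE 0.08, adjusted p = 5.92e-05), but its call from 22 °C to 6 °C (0.23, adjusted p = 0.0398) was lost in 6 of 12 fits that left out 1 library. In GRCm38 Gars lies on chromosome 6 from 55038007 to 55079500, and Aars on chromosome 8 from 111033144 to 111057664, where 14.3% of its exon bases are shared with Exosc6 on the same strand.

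A second set of cytosolic members did not pass the test at 22 °C and was higher at 6 °C. Wars, the tryptophanyl-tRNA synthetase, was at 45.2, 51.9, 57.3 and 48.9 CPM at 30 °C, 53.2, 52.5, 46.5 and 46.6 CPM at 22 °C, and 69.1, 77.5, 74.9 and 78.5 CPM at 6 °C. The warmer groups overlapped, and the 6 °C group lay above both (0.59 against 22 °C, SE 0.08, adjusted p = 0.000228). In human cells this gene is known to respond to interferon gamma. Of 15 interferon response genes here, none rose and 7 fell at 6 °C against 30 °C, beside 25.3% higher and 31.5% lower over all tested genes. At 6 °C against 22 °C 5 rose and 2 fell, beside 16.9% higher and 17.4% lower. At 22 °C against 30 °C none rose and 12 fell, beside 21.8% higher and 22.8% lower. Wars stood at -0.03 in that comparison (adjusted p = 0.774). A link between these genes and Wars was not tested. Yars, for tyrosine, was at 32.4 ± 2.66, 34.7 ± 2.52 and 47.5 ± 1.30 CPM (SD, n = 4) at 30, 22 and 6 °C (0.45 from 22 °C to 6 °C, adjusted p = 0.00069). Nars and Rars, for asparagine and arginine, rose by 0.30 and 0.33 over the same step (adjusted p = 0.00856 and 0.00215), and Sars, for serine, by 0.23 (adjusted p = 0.0332), a call lost in 6 of 12 fits that left out 1 library. Mars, for methionine and within the complex, is not of this set, since it passed the test at 22 °C. Its level was 58.2, 55.9, 59.4 and 47.5 CPM at 30 °C, 71.5, 91.4, 77.7 and 72.9 CPM at 22 °C, and 68.3, 64.7, 73.7 and 72.1 CPM at 6 °C. Both colder groups lay above 30 °C (0.50 at 22 °C, adjusted p = 0.00078, and 0.34 at 6 °C, adjusted p = 0.00762).

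2 cytosolic members, both of the complex, were lower at 6 °C in a comparison. Dars, for aspartate, was at 96.8, 96.0, 94.5 and 79.0 CPM at 30 °C, 78.7, 90.5, 80.1 and 87.3 CPM at 22 °C, and 78.8, 72.6, 79.4 and 77.4 CPM at 6 °C. The groups overlapped through 30 °C mouse B, the log2 fold change at 6 °C against 30 °C was -0.25 (SE 0.08, adjusted p = 0.0147), and the call was lost without 6 °C mouse 2 (adjusted p = 0.0511). Qars, for glutamine, was at 59.97, 63.5, 69.3 and 60.9 CPM at 30 °C, 66.6, 76.4, 71.5 and 70.9 CPM at 22 °C, and 53.7, 57.9, 58.1 and 58.4 CPM at 6 °C. The 6 °C group lay below both others, and it passed the test against 22 °C (-0.32, SE 0.07, adjusted p = 0.00292) and not against 30 °C (-0.15, adjusted p = 0.0647). Mitochondria have no such enzyme and make their glutaminyl-tRNA with Qrsl1, Gatb and Gatc, whose log2 fold changes at 6 °C against 30 °C were -0.01, 0.27 (adjusted p = 0.0127) and -0.03.

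Other members did not pass the test in any of the 3 comparisons. Lars, for leucine, was at 36.6 ± 0.96, 37.1 ± 1.35 and 36.8 ± 0.60 CPM (SD, n = 4) at 30, 22 and 6 °C, and the log2 fold change at 6 °C against 30 °C was 0.01 with an SE of 0.06. Kars, for lysine, Farsa, a chain of the phenylalanine enzyme, and Vars, for valine, had 0.02, -0.06 and -0.17 in that comparison, with adjusted p of 0.783, 0.589 and 0.192. Farsb, the other chain, stood at 0.21 (adjusted p = 0.0702), with its 6 °C mice all above its 30 °C mice, and Hars, for histidine, at 0.15 (adjusted p = 0.0811). With total-count scaling Lars was at -0.31 and Kars at -0.29, beside a median shift of -0.32, and with upper-quartile scaling at -0.06 and -0.04.

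**Figure D3:**
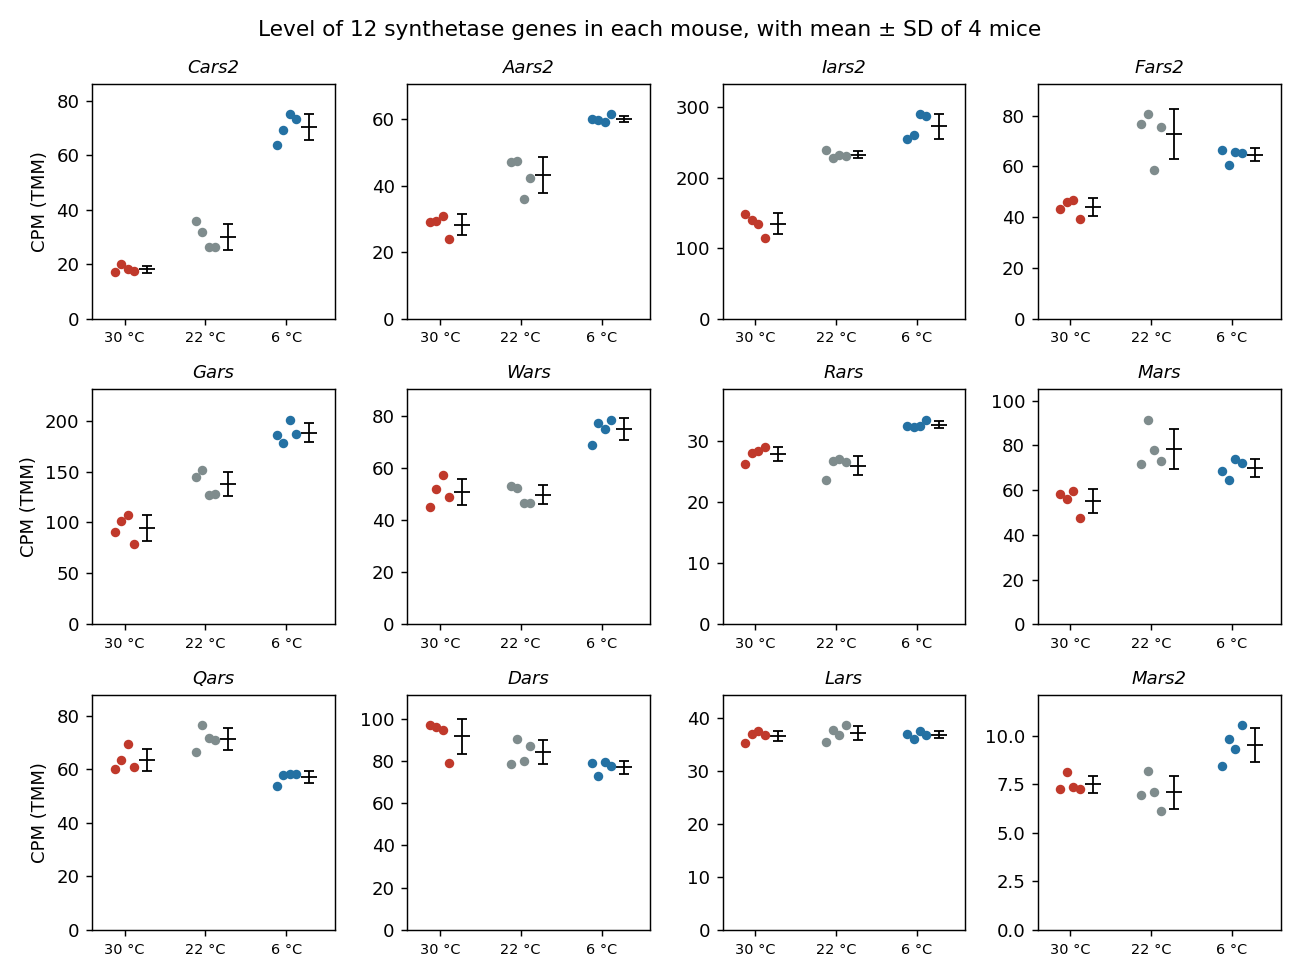
CPM of 12 synthetase genes in each mouse at 30, 22 and 6 °C (points), with the mean and SD of 4 mice beside them. Cars2, Aars2 and Gars step up at both temperatures, Wars and Rars at 6 °C, Mars and Fars2 at 22 °C, and Lars stays near 36.6 to 37.1 CPM.

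Levels were compared between genes per length of exon, with all annotated exons of a gene joined. That length can exceed a transcript's: for Lars2 it was 11089 bases, against 3894 in its longest coding transcript. The order of genes below rests on this choice. In CPM per kilobase of annotated exon at 30 °C, Gars stood highest at 30.3 ± 3.99 (SD, n = 4), followed by Dars at 21.0 ± 1.94, Nars at 19.5 ± 0.63 and Farsb at 17.8 ± 1.92, where neighbours after Gars do not differ beyond their spread. Mars2, divided by 11294 bases, stood lowest at 0.665 ± 0.039, below Wars2 at 1.67 ± 0.13. By CPM alone Pars2 was lower than Mars2 at 30 °C, with means of 7.29 and 7.51. At 6 °C Gars reached 60.3 ± 3.03 and Iars2 30.7 ± 2.00, against 15.1 ± 1.65 for Iars2 at 30 °C. The value of Iars, 5.75 ± 0.77 CPM per kilobase at 30 °C, is uncertain, since 1656 bases of its transcript match the Gm4849 transcript at 96.0% identity.

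For each amino acid, the log2 ratio of the mitochondrial to the cytosolic gene in CPM per kilobase was taken within each library, where no library scaling changes it. The level of a ratio rests on the exon lengths used, while its change between temperatures does not. Over 17 pairs, with both chains of the cytosolic phenylalanine enzyme beside Fars2, the median ratio was -0.60 to -0.42 in the 4 libraries at 30 °C, -0.31 to -0.13 at 22 °C and -0.15 to 0.01 at 6 °C. From 30 °C to 22 °C the median change was 0.43, and the groups of 13 pairs lay apart with the higher ratio at 22 °C, against 1 pair, Mars2 to Mars, with the lower. From 30 °C to 6 °C the median change was 0.40, with 11 pairs apart and higher and none apart and lower. From 22 °C to 6 °C it was 0.01, with 3 pairs apart and higher and 2 apart and lower. In that step 9 of the 17 changes were positive and 8 negative. The median ratios per library do not follow 1 pair. The middle pair was Fars2 to Farsa and Farsb in 30 °C mouse 1 and Tars2 to Tars in 6 °C mouse 1. Their higher values at 6 °C than at 22 °C are therefore not a shift of the pairs as a whole. Without 30 °C mice A and B the median changes against 30 °C were 0.30 at 22 °C and 0.32 at 6 °C. No share over other gene pairs was computed to set beside the counts of pairs that lay apart. Ears2 and Pars2 share the partner Eprs, so the pairs are not all independent of each other.

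The pair for cysteine moved farthest from 30 °C to 6 °C. Its log2 ratio of Cars2 to Cars was -0.33 ± 0.11 (SD, n = 4) at 30 °C, 0.33 ± 0.17 at 22 °C and 1.45 ± 0.09 at 6 °C, a change of 1.78 from 30 °C to 6 °C. The ratio for isoleucine went from 1.40 ± 0.14 to 2.09 ± 0.18 and 2.07 ± 0.06. The ratio for arginine rose from 0.21 ± 0.19 to 0.73 ± 0.08 at 22 °C and was 0.22 ± 0.04 at 6 °C. The ratio for methionine fell from -4.60 ± 0.15 to -5.19 ± 0.09 and was -4.59 ± 0.15 at 6 °C.

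**Figure D4:**
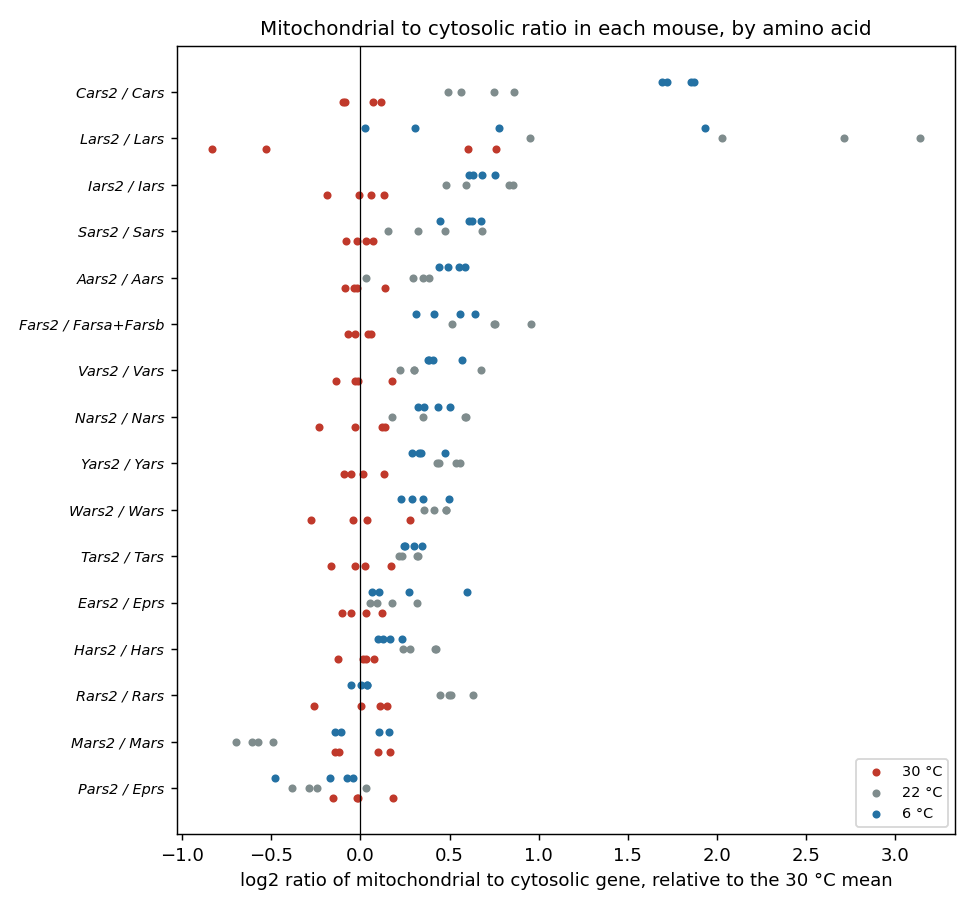
Log2 ratio of the mitochondrial to the cytosolic gene of each amino acid shown, in each mouse, with the 30 °C mean of the pair set to 0. Pairs are ordered by their change from 30 °C to 6 °C, from Pars2 to Eprs at the bottom to Cars2 to Cars at the top at 1.78. The 22 °C points already lie to the right of 0 for most pairs.

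Promoters of 27 of the 37 members were found in the RefSeq table of GRCm38.p6. Those with no entry included Cars, Hars, Hars2, Lars, Nars, Pars2, Rars, Vars and Wars. Each promoter, 250 bases before to 50 after the start, was searched on both strands for TGATGNAA, the core of the element bound by C/EBP and ATF factors, for the palindromic core bound by NRF1, and for CACGTG, the E-box. The first was found in 5 of 13 cytosolic and shared members with a promoter (Aars, Gars, Iars, Tars and Yars), in 0 of 14 mitochondrial ones and in 4.51% of all 27025 genes in the table. The E-box was found in 4 of 13 (Aars, Farsb, Iars and Tars), in 1 of 14 (Ears2) and in 8.09% of all genes. The exact NRF1 core was found in none of either set and in 1.07% of all genes, and variants of it were not searched for. A match is a description of these letters and not a site of binding. The 250 bases before the start are shown for 2 cytosolic or shared members with the first motif, 1 with the E-box, and the 2 mitochondrial members with the largest called changes at 6 °C against 30 °C, which hold none. Capitals mark a match, which for TGATGNAA can be its reverse complement. Gars is chr6:55037751-55038000 on the plus strand, Tars chr15:11399659-11399908 on the minus strand, Farsb chr1:78488898-78489147 on the minus strand, Cars2 chr8:11550772-11551021 on the minus strand and Aars2 chr17:45506582-45506831 on the plus strand.
Gars: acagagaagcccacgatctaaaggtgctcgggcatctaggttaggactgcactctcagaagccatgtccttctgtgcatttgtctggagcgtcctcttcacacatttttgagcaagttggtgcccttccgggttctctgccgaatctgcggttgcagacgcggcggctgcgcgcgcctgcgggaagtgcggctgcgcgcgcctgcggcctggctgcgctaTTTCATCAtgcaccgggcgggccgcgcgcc
Tars: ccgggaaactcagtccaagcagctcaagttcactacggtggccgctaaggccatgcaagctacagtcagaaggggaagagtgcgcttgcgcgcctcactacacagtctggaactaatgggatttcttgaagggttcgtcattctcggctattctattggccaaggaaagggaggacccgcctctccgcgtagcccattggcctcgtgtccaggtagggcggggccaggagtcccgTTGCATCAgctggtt
Farsb: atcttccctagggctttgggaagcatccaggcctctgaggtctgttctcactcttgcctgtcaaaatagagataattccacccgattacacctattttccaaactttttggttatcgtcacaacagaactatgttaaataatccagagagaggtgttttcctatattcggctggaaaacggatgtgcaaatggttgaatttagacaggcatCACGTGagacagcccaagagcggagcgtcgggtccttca
Cars2: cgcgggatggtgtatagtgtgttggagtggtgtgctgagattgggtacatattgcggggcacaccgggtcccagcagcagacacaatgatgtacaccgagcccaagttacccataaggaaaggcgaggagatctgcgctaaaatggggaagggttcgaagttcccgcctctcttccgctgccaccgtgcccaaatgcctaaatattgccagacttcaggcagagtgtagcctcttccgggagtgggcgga
Aars2: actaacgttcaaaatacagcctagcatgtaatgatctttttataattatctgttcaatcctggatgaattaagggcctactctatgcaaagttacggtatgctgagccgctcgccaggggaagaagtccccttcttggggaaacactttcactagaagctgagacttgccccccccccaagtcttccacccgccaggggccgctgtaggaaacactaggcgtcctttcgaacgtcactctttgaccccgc

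The step from 22 °C to 6 °C and the step from 30 °C to 22 °C differed for 12 members. That test compares the log2 fold change of the colder step with that of the warmer step, and over all tested genes 14.3% had a higher and 15% a lower change at the colder step, 29.3% in all. For the 37 members together, a count of 12 is near that share. By compartment, 5.88% of mitochondrial members were higher and 41.2% lower, and 10% and 10% of cytosolic and shared members. Among mitochondrial members 1 was higher (Cars2) and 7 were lower (among them Fars2, Hars2, Iars2, Lars2, Rars2 and Vars2). Among cytosolic and shared members Rars and Wars were higher and Mars and Qars lower. Wars had a difference of 0.63 (SE 0.15, adjusted p = 0.00646) and Fars2 one of -0.90 (SE 0.16, adjusted p = 0.0019). The call for Cars2 (0.51, adjusted p = 0.0496) was lost in 9 of 12 fits that left out 1 library, that for Vars2 in 6, that for Hars2 in 2 and that for Lars2 in 1 (adjusted p = 0.0559 without 22 °C mouse 1). Of the 12 calls, 7 held in every such fit. With the non-coding RNA level as a covariate, which itself differed between the temperatures, Wars alone of these 12 had an adjusted p under the threshold (0.0462).

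Other genes of charging and translation were set beside the synthetases, from lists chosen with earlier results of these data known. The shares over all tested genes to read them against are 25.3% higher and 31.5% lower at 6 °C against 30 °C, 21.8% and 22.8% at 22 °C against 30 °C, and 16.9% and 17.4% at 6 °C against 22 °C. Of 18 mitochondrial translation and transcription factors, 17 rose at 6 °C and 17 at 22 °C, each against 30 °C, with none lower. Gfm1, a mitochondrial elongation factor, went from 111 ± 17.1 CPM (SD, n = 4) to 181 ± 7.96 and 276 ± 17.8 (log2 fold change 1.31 at 6 °C, adjusted p = 5.41e-07), and Tfb2m, a mitochondrial transcription factor, from 8.54 ± 1.13 to 15.7 ± 0.70 and 16.9 ± 1.46. From 22 °C to 6 °C 3 of the 18 rose. Of 15 genes that mature mitochondrial tRNA, 9 rose and 2 fell at 6 °C against 30 °C. Nsun3, which methylates mitochondrial tRNA for methionine, rose by 1.64 (adjusted p = 3.52e-07) and Mto1, which modifies the wobble base, by 1.12 (adjusted p = 6.1e-07).

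In the cytosol, 13 of 20 translation factors rose and 2 fell at 6 °C against 30 °C, Eif4g1, a scaffold of initiation, by 0.71 (adjusted p = 3.27e-06). None of the 3 scaffold genes of the multi-synthetase complex passed the test: Aimp1, Aimp2 and Eef1e1 stood at -0.08, -0.23 and 0.23, with adjusted p of 0.39, 0.127 and 0.2. Of 12 relatives, editing enzymes and tRNA exporters, 5 rose and 2 fell at 6 °C against 30 °C, and the list's median log2 fold change was -0.02 with 5 positive and 7 negative. Xpot, the tRNA exporter, rose by 0.55 (adjusted p = 9.23e-05), Dtd1, which removes wrongly attached D-amino acids, fell by 0.58 (adjusted p = 0.00115), and Tarsl2, a threonyl-tRNA synthetase relative, stood at -0.04.

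Of 23 genes of the integrated stress response and ATF4 targets, 7 rose and 4 fell at 6 °C against 30 °C, 3 rose and 8 fell at 22 °C against 30 °C, and 10 rose and 3 fell at 6 °C against 22 °C. At 6 °C against 30 °C that is 30.4% higher and 17.4% lower, beside 25.3% and 31.5% of all tested genes. Atf4, the transcription factor for which many synthetases are known targets, was at 131 ± 36.1, 87.3 ± 10.8 and 165 ± 43.0 CPM (SD, n = 4) at 30, 22 and 6 °C (log2 fold change 0.33 at 6 °C against 30 °C, adjusted p = 0.213, and 0.92 against 22 °C, adjusted p = 0.00784). Asns, asparagine synthetase, rose by 0.61 at 22 °C (adjusted p = 0.00024) and stood 0.25 above 30 °C at 6 °C (adjusted p = 0.0362), and Asns was at -0.07 in that comparison with total-count scaling. Atf5 rose by 1.68 at 6 °C (adjusted p = 2.66e-06), and Phgdh, the first enzyme of serine synthesis, fell by 3.21 (adjusted p = 4.42e-05).

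**Figure D5:**
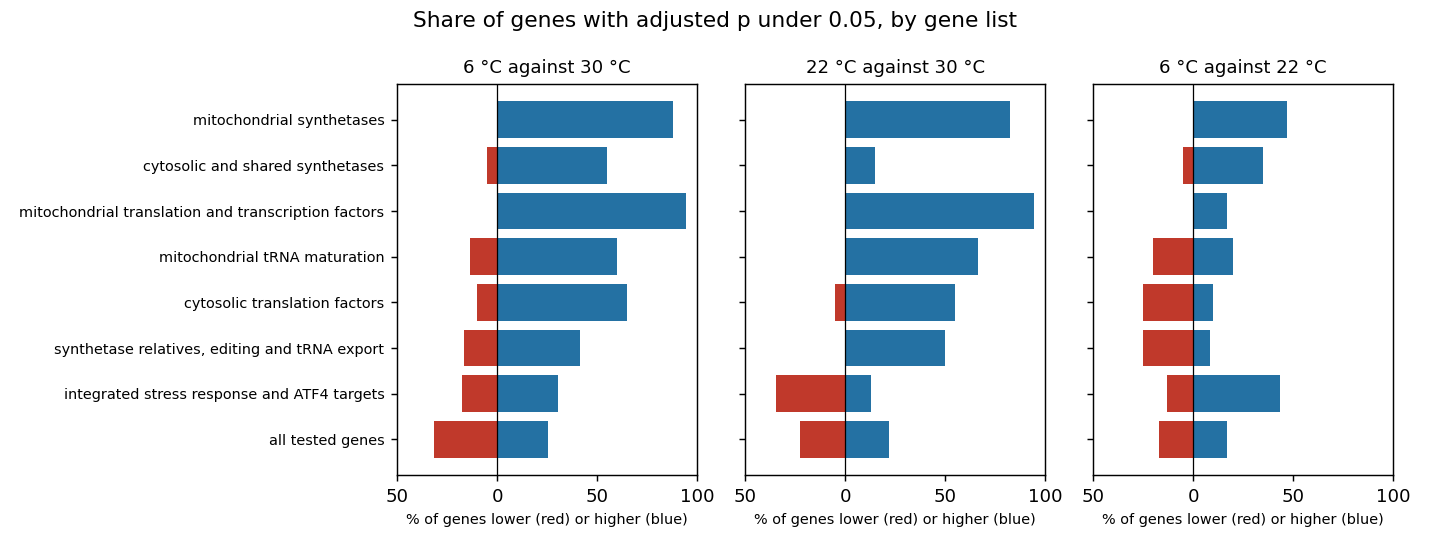
Percent of genes in each list that were higher (blue, to the right) or lower (red, to the left) at an adjusted p under 0.05 in the 3 comparisons, with all 14870 tested genes at the bottom. Mitochondrial synthetases reached 88.2% higher at 6 °C and 82.4% at 22 °C against 30 °C, and cytosolic and shared synthetases 55% and 15%.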

How the data were processed

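The deposited file holds raw counts, which the authors gave as whole reads per gene under Ensembl identifiers. Per the labels' protocols, RNA was taken up in Qiazol, cleaned on RNeasy columns and freed of DNA before Illumina library preparation. The submitters' processing notes list FastQC 0.10.1, STAR 2.4.2a, edgeR 3.14.0, GRCm38 and mm10 but give them no role. The counting program, its annotation and its use of strand were not found in the sources used here. All 12 columns were used: 10 carry a numbered mouse, and 2 were tied to 30 °C by their letter alone (mice A and B).

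Here counts were fitted with edgeR 4.0.16 in R 4.3.3, with filterByExpr, TMM scaling, 1 coefficient per temperature over 12 libraries, robust glmQLFit and two-sided glmQLFTest. Benjamini-Hochberg adjustment ran over 14870 genes. SE is the size of the log2 fold change over the square root of F. The fit was also run on simulated data. No outcome of that run is given here, and no conclusion is drawn from it. CPM was computed from the counts with TMM library sizes. Positions and exon lengths came from GENCODE for GRCm38, matched for 96.62% of identifiers, and shared stretches from blastn 2.17.0 (identity of at least 95%, length of at least 60 bases). Each library is 1 mouse per the labels, and p-values weigh differences against the spread between these mice. No 2 libraries of a group agreed within sampling noise (lowest chi-square per degree of freedom 21.1).

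Every member could be named, with up to 4 genes of each other list by smallest p at 6 °C against 30 °C and a fixed panel (Atf4, Asns, the complex scaffold, the amidotransferase, Tarsl2, Ucp1). The single values of 1 member are not reported here, though it is counted among the members. The members and lists were chosen with earlier results of these data known. Alternatives covered scaling (RLE, upper quartile, total counts, TMM without the mitochondrial genome and Ucp1), filters, DESeq2 1.42.0, limma voom 3.58.1, fits without robust estimation or of the compared libraries only, the mouse number as a block, omitted libraries, 2 covariates, thinning of the deep library and stricter thresholds.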

Additional observations from a re-analysis of the deposited data

Results flagged for a closer look

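In 5 of the 111 groups of 4 mice checked (37 genes at 3 temperatures), 1 mouse lay far from the other 3 by Dixon's 95% criterion, where chance gives about 1 in 20. At 30 °C Dars was low in mouse B, at 79.0 CPM against 94.5 to 96.8 in the others, and Mars2 was high in mouse 2, at 8.16 CPM against 7.25 to 7.34. At 22 °C Nars was high in mouse 2, at 99.0 CPM against 82.9 to 83.6, and Rars was low in mouse 1, at 23.6 CPM against 26.5 to 27.0. At 6 °C Qars was low in mouse 1, at 53.7 CPM against 57.9 to 58.4.

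The change from 22 °C to 6 °C differed from the change from 30 °C to 22 °C for 12 of the 37 genes, by edgeR's quasi-likelihood test. Of the 37, 8.11% had a higher and 24.3% a lower change at the colder step, beside 14.3% and 15% of all tested genes. Over all tested genes 29.3% differed in either direction, so a count of 12 is near the background. Those reported are given here. On the log2 scale the colder step minus the warmer step was 0.63 for Wars (adjusted p = 0.00646), 0.51 for Cars2 (0.0496) and 0.43 for Rars (0.0127). It was -3.72 for Lars2 (0.0157), -0.90 for Fars2 (0.0019), -0.67 for Mars (0.00717) and -0.60 for Rars2 (0.00819). It was -0.56 for Iars2 (0.011), -0.49 for Qars (0.00688), -0.45 for Vars2 (0.0328) and -0.44 for Hars2 (0.0171). Both steps share the 22 °C mice, so a mouse that is high at 22 °C moves both in opposite directions.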

How the results depend on the processing

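Counts below are genes with an adjusted p under 0.05 unless a stricter threshold is named, and "steps" is the colder against the warmer step. Cytosolic stands for cytosolic and shared. With total counts only, at 6 °C against 30 °C, 4 cytosolic genes were higher and 7 lower, 9 mitochondrial ones higher, and 1939 of all genes higher and 7888 lower. At 22 °C against 30 °C these were 2 and 11 cytosolic, 7 and 1 mitochondrial, and 1419 and 6224 of all genes. At 6 °C against 22 °C 4 cytosolic and 2 mitochondrial genes were lower. For the steps they were 4 higher and 1 lower cytosolic, and 2 higher and 4 lower mitochondrial. A sign was counted as turned where the gene was called in at least 1 of the 2 fits. By that rule, this scaling turned Eprs (-0.046), Hars (-0.17), Hars2 (-0.0073), Kars (-0.29), Lars (-0.31), Rars (-0.090), Rars2 (-0.083), Tars (-0.11), Vars2 (-0.042), Asns (-0.067) and Gatb (-0.045) at 6 °C against 30 °C. At 22 °C against 30 °C it turned Farsb (-0.21), Hars (-0.23), Lars (-0.24), Nars (-0.22), Tars (-0.18) and Yars (-0.16). By that rule no other alternative turned a sign. Uncalled values near 0 could change sign too, as Lars (-0.06) and Kars (-0.04) did at 6 °C against 30 °C with upper-quartile scaling, and Cars (-0.15), Farsb (-0.098) and Pars2 (-0.24) with total counts. With RLE scaling 0 cytosolic genes were lower at 6 °C against 30 °C, 5 were higher at 22 °C against 30 °C, and 0 mitochondrial genes were higher in the steps. With upper-quartile scaling, and with a filter of 1 CPM in 4 libraries, 2 cytosolic genes were lower at 6 °C against 30 °C. Without a filter the steps had 1 higher cytosolic and 0 higher mitochondrial genes. DESeq2 called 5 cytosolic genes higher at 22 °C against 30 °C. DESeq2, limma voom and the fit without robust estimation called 1 mitochondrial gene lower at 6 °C against 22 °C, and in the steps voom called 2 mitochondrial genes higher and the fit without robust estimation 0.

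The labels do not say that a mouse number is shared between temperatures. Correlations of 8 same-number pairs ran from -0.15 to 0.23, and 3 were over 0.1. Pairs of unlike number were not compared, so these values do not settle whether the numbers pair the samples. With the mouse number as a replicate block over 10 libraries, 7 cytosolic genes were higher at 6 °C against 30 °C and 2871 of all genes lower, 1624 and 1621 of all genes were higher and lower at 22 °C against 30 °C, and 1 mitochondrial gene was lower at 6 °C against 22 °C. In the steps the block left 1 higher and 1 lower cytosolic and 0 higher and 3 lower mitochondrial genes. Without 30 °C mice A and B, 2151 of all genes were higher at 22 °C, 0 mitochondrial genes were higher in the steps, and the median ratio changes were 0.32 and 0.30 at 6 °C and 22 °C. With muscle level as a covariate 5 mitochondrial genes were higher at 6 °C against 22 °C and 0 higher in the steps. With non-coding RNA level as a covariate, added after seeing the data, 8 mitochondrial genes and 2006 of all genes were higher and 2211 lower at 22 °C against 30 °C. At 6 °C against 22 °C that gave 5 mitochondrial genes higher and 1527 and 1578 of all genes higher and lower, and in the steps 1 higher and 0 lower cytosolic and 0 mitochondrial genes.

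At an adjusted p under 0.01, 0 cytosolic genes were lower at 6 °C against 30 °C, 3 mitochondrial genes were higher at 6 °C against 22 °C with 1409 and 1394 of all genes higher and lower, and the steps had 1 higher cytosolic and 0 higher and 2 lower mitochondrial genes. At 1.5-fold or more, 1 cytosolic gene was higher and 0 lower at 6 °C against 30 °C, with 7 mitochondrial and 1921 of all genes higher. At 22 °C against 30 °C these were 0, 6 and 1255. At 6 °C against 22 °C 1 cytosolic gene was higher and 0 lower, 1 mitochondrial gene was higher, and 1224 and 1336 of all genes were higher and lower, and the steps had 1 higher and 1 lower cytosolic and 0 higher and 3 lower mitochondrial genes. Leaving out 1 library at a time gave 10 to 12 higher and 0 to 2 lower cytosolic genes and 13 to 15 higher mitochondrial genes at 6 °C against 30 °C. At 22 °C against 30 °C it gave 3 to 5 higher and 0 to 1 lower cytosolic and 14 to 15 higher mitochondrial genes. At 6 °C against 22 °C it gave 5 to 8 higher cytosolic, 5 to 8 higher and 0 to 2 lower mitochondrial genes, and in the steps 2 to 3 higher and 2 to 3 lower cytosolic, and 0 to 1 higher and 3 to 7 lower mitochondrial genes. The median ratio change ranged from 0.33 to 0.45 at 6 °C against 30 °C, 0.37 to 0.47 at 22 °C against 30 °C and -0.03 to 0.03 at 6 °C against 22 °C. Fits of the compared libraries only, TMM without the mitochondrial genome and Ucp1, and thinning of the deep library moved none of these counts by over 1.5 times. The cause of these changes was not tested.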

Other observations

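The mitochondrial tRNAs that these enzymes charge are listed in the count table as 22 genes, of which 15 passed the filter on low counts and 7 had almost no counts. Whether the reads assigned to these genes came from mature tRNAs was not tested. The values below are therefore read counts and not levels of the tRNAs available for charging. The reads of the 22 genes summed to 689 to 909 CPM at 30 °C, 573 to 785 CPM at 22 °C and 475 to 618 CPM at 6 °C. At 6 °C against 30 °C 1 of the 15 rose and 7 fell, beside 25.3% higher and 31.5% lower over all tested genes.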
